A study of Rattus norvegicus with 4 samples.

Results

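The cluster of miR-322, miR-503, miR-351, miR-542, miR-450b and miR-450a is a set of 6 rat miRNA hairpins that lie in this order along the minus strand of chromosome X. In the files they are named rno-mir-322, rno-mir-503, rno-mir-351, rno-mir-542, rno-mir-450b and rno-mir-450a. Its members were chosen by hairpin name in small RNA libraries of exosomes, the small vesicles that cells release, and the 6 make up part of 262 named hairpins with a count in any library. The cluster was picked with its counts in both groups known, so the contrast between the groups is given below as a description, with folds and errors but no p-values. The hairpins can give 12 mature arms, of which 8 had a count, beside 348 named arms with a count in all.

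Exosomes of 2 sources were compared, with 2 libraries in each group and 4 in all. Exo-AT are exosomes of adipose tissue: fat of SD (Sprague-Dawley) rats aged 4 weeks was minced, and the explants were stirred at 100 rpm in a spinner flask that held 75 mL of α-MEM with penicillin and streptomycin, over 3 days. Exo-ADSCs are exosomes of adipose stem cells (ADSCs) at passage 3, which were washed and then held for 3 days in α-MEM without serum and with the same antibiotics. The labels give neither the fat depot nor the number of animals, and do not say whether animals were pooled, so the spread between replicates may be technical. An explant holds every cell type of the fat pad, and a difference in the number of vesicles from one cell type cannot be told apart from a difference in miRNA per vesicle.

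A miRNA is cut from the stem of its hairpin, and either arm of the stem, named 5p or 3p, can be kept in the silencing complex. Pairing with messenger RNAs starts at the seed, bases 2 to 8 of the mature arm, so a shift of the 5′ end changes the seed. miR-322 is the rodent counterpart of human miR-424, and with miR-503 it is known from mouse muscle cells as a brake on the cell cycle. miR-351 is related by its seed to the miR-125 family, and human miR-542-3p is known to target survivin. miR-450a-5p is known from rat adipose stem cells as a promoter of fat cell differentiation.

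All 6 hairpin sequences in the files were identical to those of RefSeq (assembly GRCr8), where the hairpins span 5309 bp at chrX:137720933-137726241. miR-450a and miR-450b are 54 bp apart, and miR-322 and miR-503 are 220 bp apart. The 12 mature sequences were also found in RefSeq. The 8 arms with a count are shown because the reads below are read against them; capitals mark the seed.
miR-322-5p: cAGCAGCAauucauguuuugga
miR-322-3p: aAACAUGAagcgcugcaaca
miR-503-5p: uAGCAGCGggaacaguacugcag
miR-351-5p: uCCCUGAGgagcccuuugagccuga
miR-351-3p: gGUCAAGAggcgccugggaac
miR-542-3p: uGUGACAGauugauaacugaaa
miR-450a-5p: uUUUGCGAuguguuccuaaugu
miR-450b-5p: uUUUGCGAuguguuccuaaua
miR-450a-5p and miR-450b-5p share a seed. The seed of miR-322-5p is also that of miR-15b-5p, miR-16-5p, miR-195-5p and miR-497-5p, and the seed of miR-503-5p is closely similar to it. The seed of miR-351-5p is also that of miR-125a-5p and miR-125b-5p.

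Counts per read sequence, called tags, were used for 3 libraries, both of Exo-AT and replicate 2 of Exo-ADSCs; the tag counts of Exo-ADSCs replicate 1 were not analysed here. The libraries differed in depth, with 9134 and 136024 counts on named miRNAs in Exo-AT replicates 1 and 2 and 97204 in Exo-ADSCs replicate 2. Named miRNAs made up 60.1% and 75.1% of all counts assigned to hairpins in Exo-AT, against 13.6% in Exo-ADSCs. Levels are given as CPM, counts scaled to a common total of named-miRNA counts with TMM, a correction for differences in composition. For an arm with 0 counts the limit of detection was set at 3 counts, which is 237 CPM in Exo-AT replicate 1, 20.4 CPM in Exo-AT replicate 2 and 46.8 CPM in Exo-ADSCs. Both Exo-AT tag files hold one and the same sample name inside, so whether these are separate samples cannot be told. All intervals are 95% intervals (Wilson for shares, Clopper-Pearson for ratios of counts), and they cover counting error only.

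The cluster was higher in both Exo-AT libraries than in Exo-ADSCs, where each arm had 10 counts or fewer. It had 122 and 1193 counts in Exo-AT replicates 1 and 2, against 28 in Exo-ADSCs. Of all named-miRNA counts these were 1.34% (1.12 to 1.59) and 0.877% (0.829 to 0.928) in Exo-AT, against 0.0288% (0.0199 to 0.0416) in Exo-ADSCs. The intervals of the groups did not overlap. After scaling the cluster stood at 8879 ± 1081 CPM in Exo-AT (SD, n = 2) and at 436 CPM in Exo-ADSCs, an 18.9-fold ratio of pooled counts (13 to 28.5). The size depends on what is counted: the cluster's share was 0.800% and 0.550% in Exo-AT, against 0.0506% in Exo-ADSCs, with tags of 20 to 25 nt only. Of all counts assigned to any hairpin it was 0.803% and 0.659% in Exo-AT, against 0.00392% in Exo-ADSCs. With only tags that begin within 3 nt of a mature start, Exo-ADSCs had 22 cluster counts, 0.0226%, and the Exo-AT shares did not change.

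Of the 12 arms, 5 passed the filter on low counts, and 4 of these were called higher in Exo-AT (miR-351-5p, miR-542-3p, miR-450a-5p and miR-450b-5p; edgeR, adjusted p under 0.05 over 183 miRNAs tested). Over all 183, edgeR called 19.1% higher and 19.1% lower, and with total counts in place of TMM the calls were 46 higher and 19 lower, against 35 and 35. Nothing is read from the cluster's count, since the contrast was known when the cluster was picked. No arm was called lower (0 by edgeR, also 0 at an unadjusted p under 0.05, by DESeq2 and by limma). Nothing is read from this either, since each arm had 10 counts or fewer in Exo-ADSCs and the filter needed a total of 15. An arm could thus pass only with counts in Exo-AT, and miR-322-3p, with 10 counts in Exo-ADSCs alone, was not tested. Of the 4 arms, limma called only miR-450a-5p, against 2.73% of all 183 called higher and 8.2% called lower by limma, and DESeq2 called 3, against 11.5% of all 183 higher and 11.5% lower. The 3 arms that had counts but did not pass the filter were miR-322-3p, miR-503-5p and miR-351-3p, and miR-503-3p, miR-542-5p, miR-450a-3p and miR-450b-3p had 0 counts in every library.

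**Figure D1:**
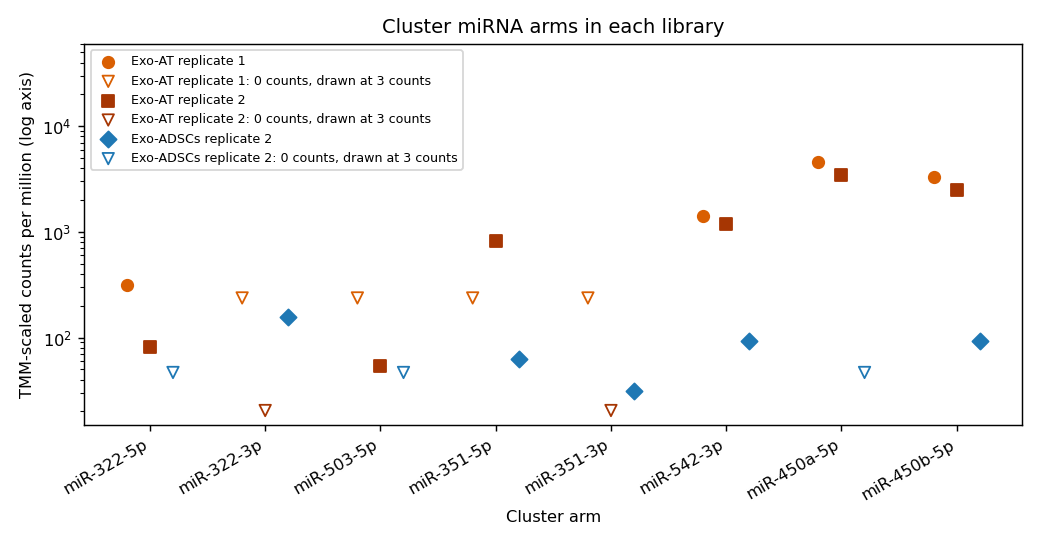
TMM-scaled CPM (log axis) of the 8 cluster arms with a count, in each of the 3 libraries whose tag counts were used. Open triangles stand for 0 counts and are drawn at the level of 3 counts; miR-450a-5p and miR-450b-5p lie highest in both Exo-AT libraries, and miR-322-3p and miR-351-3p have counts only in Exo-ADSCs.

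Most of the cluster's counts in Exo-AT came from the miR-450 pair at its downstream end. miR-450a-5p had 58 counts (4585 CPM) in Exo-AT replicate 1 and 513 counts (3489 CPM) in replicate 2, against 0 in Exo-ADSCs. Both Exo-AT libraries lay far above the limit of 46.8 CPM in Exo-ADSCs. It averaged 4037 ± 774 CPM in Exo-AT (SD, n = 2). Its pooled level in Exo-AT, 3576 CPM, was at least 76.5-fold higher than in Exo-ADSCs, taken at 3 counts. This bound holds for the tag counts only. The authors' deposited table, treated below, gives miR-450a-5p 27 normalized reads in Exo-ADSCs replicate 2 and a fold of 56.7, smaller than the bound. It ranked 18 of 140 detected miRNAs in Exo-AT replicate 1 and 22 of 244 in replicate 2.

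miR-450b-5p had 42 deposited counts (3320 CPM) and 366 counts (2490 CPM) in Exo-AT replicates 1 and 2, against 6 counts (93.5 CPM) in Exo-ADSCs. Neither Exo-AT library overlapped Exo-ADSCs. Its log2 fold change was 4.91 (SE 0.68), but this rests on reads shared with miR-450a. It was 5.71 (SE 0.59) with those reads not divided. With only tags that align to hairpins of a single miRNA, the shared reads drop out, and its log2 fold change was -0.50 (SE 2.21). The 6 counts in Exo-ADSCs stay in that setting.

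The 6 counts of miR-450b-5p in Exo-ADSCs came from 1 tag of 5 reads, which is shown because it is not the mature miRNA; capitals mark its bases within the mature arm.
Exo-ADSCs tag: tttggaactatTTTTG
This tag began 11 nt before the mature arm and 4 bases before the hairpin, and only 5 of its bases lay in the mature sequence. No tag in Exo-ADSCs shared a word of 11 bases with the miR-450a hairpin, whereas 98 reads in Exo-AT replicate 1 and 875 in replicate 2 did. Mature miR-450a-5p and miR-450b-5p together thus had 98 and 877 reads in Exo-AT, against 0 in Exo-ADSCs. In the tag reads, pooled over both Exo-AT libraries, they were at least 131-fold higher than in Exo-ADSCs, taken at 3 counts. That bound does not cover the value above 0 that the authors' deposited table gives miR-450a-5p in Exo-ADSCs. The pair made up 85.2% and 73.9% of the cluster's reads in Exo-AT.

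The miR-450 pair can be told apart only at the 3′ end of the mature arm. Over the first 22 bases from the mature start the hairpins have 21 bases in common and differ by G21A, the base of miR-450a first and counted from 1 at the 5′ end; capitals mark that base.
miR-450a hairpin, mature start: uuuugcgauguguuccuaauGu
miR-450b hairpin, mature start: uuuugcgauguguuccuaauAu
Among the tags that begin at or 1 nt after the mature start, those of 15 to 20 nt aligned to both hairpins, and those of 21 nt or more aligned to one of them. The most frequent tags are shown because they carry most of the reads; capitals mark the seed.
16-nt tag on both hairpins: tTTTGCGAtgtgttcc
22-nt tag on miR-450a: tTTTGCGAtgtgttcctaatgt
22-nt tag on miR-450b: tTTTGCGAtgtgttcctaatat
The 16-nt tag had 51 and 387 reads in Exo-AT replicates 1 and 2, and the 22-nt tag of miR-450a had 29 and 282. The 22-nt tag of miR-450b had 13 reads, all in Exo-AT replicate 2. The letters of the 16-nt tag occur in 2 of the 419 rat hairpins in the RefSeq table, those of miR-450a and miR-450b.

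Reads that tell the pair apart were nearly all of miR-450a. In Exo-AT replicate 1, 37 reads aligned only to miR-450a and 0 only to miR-450b, which allows a miR-450b share of up to 8.11% (3 counts of 37) or, by the Wilson interval, 9.41%. In Exo-AT replicate 2, 337 reads aligned only to miR-450a and 13 only to miR-450b, a share of 3.71% (2.18 to 6.25). The deposited counts instead gave miR-450b-5p 42.0% of the pair's counts in Exo-AT replicate 1 and 41.6% in replicate 2. The other 61 and 527 reads of the pair, 62.2% and 60.1%, aligned to both hairpins. The files name miR-450b at 2 places with the same sequence and miR-450a at 1, and the reads of such a tag are divided over all 3 names.

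**Figure D2:**
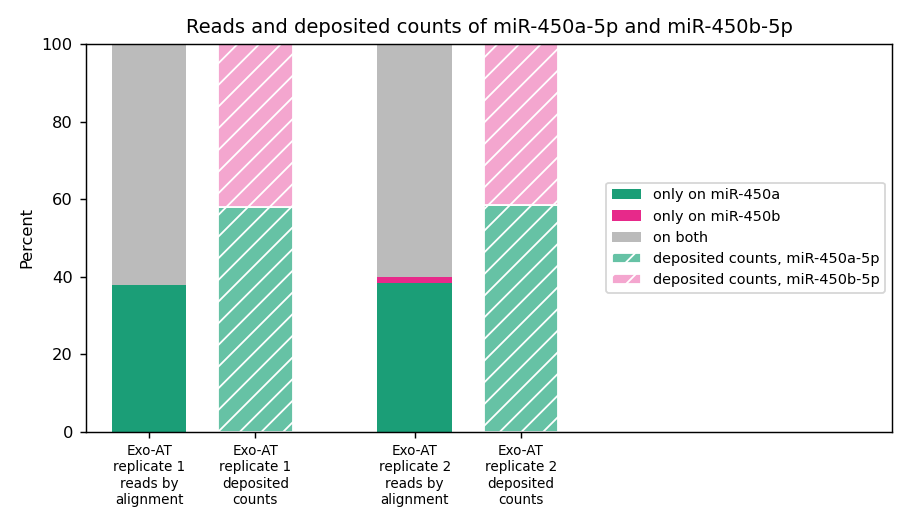
Percent of the miR-450a/b-5p reads in each Exo-AT library that align only to miR-450a, only to miR-450b or to both hairpins (solid bars), beside the split of the deposited counts (hatched bars). Reads of miR-450b alone are 0 in replicate 1 and 1.48% in replicate 2, whereas the deposited counts give miR-450b-5p 42.0% and 41.6%.

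The miR-450a/b-5p reads fell into 2 length classes. Reads of 15 to 17 nt made up 60.2% (50.3 to 69.3) in Exo-AT replicate 1 and 57.8% (54.5 to 61) in replicate 2, and reads of 21 to 23 nt made up 37.8% and 39.9%. Only 2 reads in Exo-AT replicate 1 and 20 in replicate 2 had 18 to 20 nt. Over all named miRNAs, 15 to 17 nt made up 7.74% and 5.71% of reads in Exo-AT, against 16.1% in Exo-ADSCs. Reads of 21 to 23 nt made up 71.4% and 75.8% in Exo-AT, against 24.8% in Exo-ADSCs. The most frequent length in Exo-ADSCs was 18 nt (30.3%). The contrasts between the groups thus set libraries of unlike read length side by side, and the effect of this was not tested. In both Exo-AT replicates the pair had a larger share of short reads than its library as a whole.

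Among other arms with at least 30 reads, none of 32 in Exo-AT replicate 1 had its most frequent length at 15 to 17 nt. In Exo-AT replicate 2, 8 of 108 (7.41%) did, and 5 had a higher share of such reads than miR-450a-5p. In Exo-ADSCs 16 of 73 (21.9%) did. The source of the short reads was not tested.

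**Figure D3:**
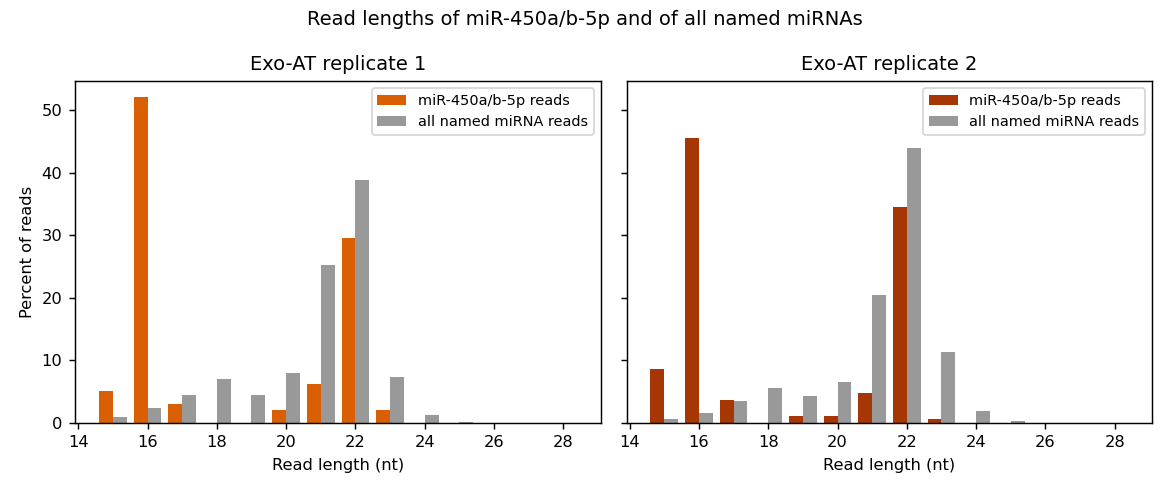
Percent of reads at each read length (nt) in the 2 Exo-AT libraries, for miR-450a/b-5p (coloured) and for all named miRNAs (grey). The pair has one peak at 16 nt (51 and 400 reads in replicates 1 and 2) and another at 22 nt (29 and 303 reads), while the named miRNAs as a whole peak at 22 nt.

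miR-542-3p, the member next upstream of the pair, had 18 counts (1423 CPM) and 174 counts (1184 CPM) in Exo-AT replicates 1 and 2, against 6 counts (93.5 CPM) in Exo-ADSCs. Both Exo-AT libraries were above Exo-ADSCs. It averaged 1303 ± 169 CPM in Exo-AT (SD, n = 2), with a log2 fold change of 3.76 (SE 0.87) and a ratio of pooled counts of 12.9 (5.80 to 35.5). Among tags of 20 to 25 nt alone it was not called, at a log2 fold change of 2.58 (SE 1.01). It ranked 44 of 140 and 56 of 244 detected miRNAs in Exo-AT and 160 of 264 in Exo-ADSCs. None of its reads came from the 5p arm in any library.

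No count of miR-351-5p was found in Exo-AT replicate 1, and 120 counts (816 CPM) were found in Exo-AT replicate 2, against 4 counts (62.3 CPM) in Exo-ADSCs. The groups overlapped, since one Exo-AT library had the most counts and the other had none. The limit of 237 CPM in Exo-AT replicate 1 lies below the level of replicate 2 and above that of Exo-ADSCs. Its mean of 408 ± 577 CPM in Exo-AT (SD, n = 2) has a spread larger than itself. The log2 fold change was 3.01 (SE 1.16) with both Exo-AT libraries and -4.33 without Exo-AT replicate 2, which is a fitted value against 0 counts and no bound.

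miR-322 and miR-503, the upstream members, were scarce. miR-322-5p had 4 counts (316 CPM) and 12 counts (81.6 CPM) in Exo-AT replicates 1 and 2, against 0 in Exo-ADSCs. The 4 counts in Exo-AT replicate 1 came from 3 reads, divided over 2 hairpin copies and rounded. Both Exo-AT libraries exceeded the limit of Exo-ADSCs, and the pooled level was at least 2.14-fold higher; this arm passed the filter and was not called. miR-503-5p had 0 counts and 8 counts (54.4 CPM) in Exo-AT replicates 1 and 2, against 0 in Exo-ADSCs. At this depth a difference in miR-503-5p was barely detectable, with a pooled level in Exo-AT at least 1.07-fold that of 3 counts in Exo-ADSCs.

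The arm of miR-322 that was read differed between the groups. All of its counts in Exo-AT were 5p, 4 and 12, which is 100% (51.0 to 100) in replicate 1 and 100% (75.8 to 100) in replicate 2. All 10 counts in Exo-ADSCs were 3p, a 5p share of 0% (0 to 27.8). The intervals did not overlap. With 1 library of Exo-ADSCs, the difference was not tested. miR-322-3p stood at 156 CPM in Exo-ADSCs, and its 0 counts in both Exo-AT libraries put it at least 8.29-fold lower there; in Exo-AT replicate 1 alone, the limit of 237 CPM would have hidden that level.

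The reads behind these arms are shown because they fix the arm; capitals mark the seed.
Exo-AT, miR-322-5p, 3 and 10 reads in replicates 1 and 2: cAGCAGCAattcatgttttgga
Exo-ADSCs, miR-322-3p, 7 reads: aAACATGAagcgctgcaacac
Both tags began at the reference 5′ end, and the 3p tag ended 1 nt past the RefSeq end. A further 2 reads in Exo-AT replicate 2 and 2 in Exo-ADSCs were these tags with 1 mismatch.

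miR-351 also had 3p reads in Exo-ADSCs alone. The 5p arm held 120 of 120 counts in Exo-AT replicate 2 (96.9% to 100), and 4 of 6 counts in Exo-ADSCs, 66.7% (30 to 90.3). The 2 counts of miR-351-3p (31.2 CPM) lay under the limit of 3 counts. For miR-542 and the miR-450 pair every count in the libraries that had any came from a single arm, 3p for miR-542 and 5p for the pair. In Exo-ADSCs the pair's counts were all of the tag that is not the mature miRNA. That tag was placed on 5p by its midpoint and shows no use of the mature arm.

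The 5′ ends, which set the seed, were more varied for miR-351-5p and miR-542-3p than for the miR-450 pair in Exo-AT replicate 2, the deeper Exo-AT library. In it, 89 of 117 miR-351-5p reads began at the reference start, 76.1% (67.6 to 82.9), with 18 reads 1 nt before it and 10 reads 1 nt after it. Of 173 miR-542-3p reads, 142 began at the start, 82.1% (75.7 to 87.1), and 15 began 2 nt after it. Of the reads on miR-450a, 849 of 864 did, 98.3% (97.2 to 98.9). The intervals of miR-351-5p and miR-542-3p lay below that of miR-450a-5p and overlapped each other. Among tags of 20 to 25 nt alone they did not overlap each other, since miR-542-3p stood at 90.2% (84.0 to 94.2) and miR-351-5p was unchanged. Both still lay below miR-450a-5p, at 98.3% (96.3 to 99.2). Exo-AT replicate 1 did not show this order: 14 of 14 miR-542-3p reads began at the start, 100% (78.5 to 100), beside 95 of 98 reads on miR-450a, 96.9% (91.4 to 99.0), and these intervals overlapped.

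The leading tag of each arm and its most frequent shifted tags in Exo-AT replicate 2 are shown because the shift moves the seed; capitals mark bases 2 to 8 of each tag.
miR-351-5p, 86 reads, at the start: tCCCTGAGgagccctttgagcct
miR-351-5p, 13 reads, 1 nt before: gTCCCTGAggagccctttgagcct
miR-351-5p, 6 reads, 1 nt after: cCCTGAGGagccctttgagcc
miR-542-3p, 55 reads, at the start: tGTGACAGattgataactga
miR-542-3p, 15 reads, 2 nt after: tGACAGATtgataactgaa
miR-542-3p, 13 reads, 1 nt before: tTGTGACAgattgataactgaa
The first base of the miR-351-5p tag that begins early does not match the hairpin, and neither does that of the other early tag (5 reads). In Exo-ADSCs, 4 of 4 miR-351-5p reads and 3 of 6 miR-542-3p reads began at the start, and the other 3 miR-542-3p reads began 2 nt after it.

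The 3′ ends of these arms fell short of the RefSeq sequences. In Exo-AT replicate 2, 88.9% of miR-351-5p reads ended 2 nt before the RefSeq end, and its most frequent length was 23 nt (86 reads). The 4 reads in Exo-ADSCs were 21 nt. miR-542-3p ended 1 nt (42.8%) or 2 nt (37.0%) before the RefSeq end in Exo-AT replicate 2, with 20 nt the most frequent length (64 reads). Of the full-length miR-450a-only reads, 86.5% in Exo-AT replicate 1 and 87.8% in replicate 2 ended at the RefSeq end. These reads have 21 nt or more by construction, because shorter ones align to both hairpins, so their ends cannot be set against those of the other arms. Reads of 15 to 17 nt, 60.2% and 57.8% of the pair's reads in replicates 1 and 2, are not among them.

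**Figure D4:**
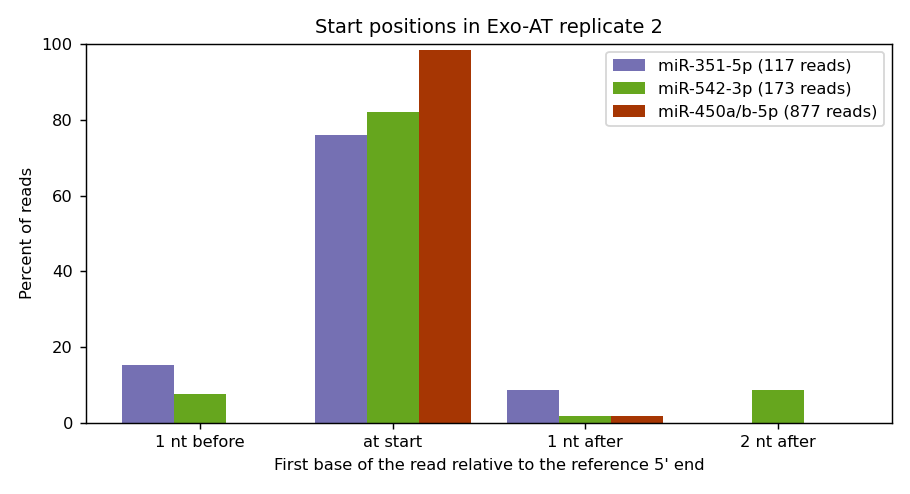
Percent of reads that begin 1 nt before, at, 1 nt after or 2 nt after the reference 5′ end in Exo-AT replicate 2, for miR-351-5p (117 reads), miR-542-3p (173 reads) and miR-450a/b-5p (877 reads). The miR-450 pair begins at the reference start in nearly all reads, while miR-351-5p has 15.4% 1 nt before it and miR-542-3p has 8.67% 2 nt after it.

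miRNAs that share or nearly share a seed with miR-322-5p, miR-503-5p or miR-351-5p but lie outside the cluster were followed as a list of 7. All 7 had a count, 5 were tested, and 4 were called higher in Exo-AT and 0 lower, beside 19.1% called in each direction over all 183 (edgeR); the median log2 fold change of the 5 was 2.82, beside 0.37 over all 183. miR-16-5p, a relative of miR-322-5p known as a brake on cell division, had 38 and 705 counts in Exo-AT, against 42 in Exo-ADSCs, a log2 fold change of 2.60 (SE 0.47). miR-125b-5p, with the seed of miR-351-5p, had 46 and 446 counts in Exo-AT, against 30 in Exo-ADSCs, a log2 fold change of 2.82 (SE 0.52). miR-497-5p had 17 and 115 counts in Exo-AT, against 6 in Exo-ADSCs, a log2 fold change of 3.42 (SE 0.95). By CPM, miR-16-5p stood at 3004 and 4796 in Exo-AT and miR-125b-5p at 3636 and 3034, both above every cluster member that carries their seed.

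Other miRNAs of the X chromosome were also followed as a list. Of 26 listed hairpins, 21 arms had a count and 9 were tested; 2 were called higher in Exo-AT (miR-19b-3p and miR-532-5p) and 1 lower (let-7f-5p), beside 19.1% called in each direction over all 183. The median log2 fold change was 0.19, beside 0.37 over all 183. let-7f-5p, of the let-7 family, had 68 and 883 counts in Exo-AT, against 667 in Exo-ADSCs, a log2 fold change of -0.86 (SE 0.32). miR-92a-3p, a member of the miR-17 family of clusters, stood at a log2 fold change of 0.18 (SE 0.36) and was not called. Nor was miR-221-3p, at -1.05 (SE 0.45). let-7f, miR-19b and miR-92a are also made from copies on other chromosomes, so their counts are not of the X chromosome alone.

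The libraries hold no messenger RNA, so the defining genes of fat cells and of stem cells were not read. miRNA markers of other cells that fat tissue can hold were present in both groups. Summed CPM of 2 endothelial miRNAs were 2767 and 4721 in Exo-AT, against 499 in Exo-ADSCs, with 2 of 2 detected. Those of 5 leukocyte miRNAs were 474 and 1020 in Exo-AT, against 234 in Exo-ADSCs, with 5 of 5 detected; the sum in Exo-AT replicate 1 rests on 3 miRNAs with 2 counts each, under the limit of 3 counts, and miR-150-5p, miR-155-5p, miR-142-3p and miR-223-3p were at 0 in Exo-ADSCs. Those of 4 muscle miRNAs were 1423 and 1360 in Exo-AT, against 265 in Exo-ADSCs, with 3 of 4 detected and miR-133b-3p at 0. miR-1b-3p made up most of that sum in Exo-AT, with 1423 and 1204 CPM, against 46.8 CPM in Exo-ADSCs. miR-206-3p went the other way, with 0 and 13.6 CPM in Exo-AT, against 187 CPM in Exo-ADSCs. Those of 5 erythroid miRNAs were 36834 and 154497 in Exo-AT, against 50789 in Exo-ADSCs, with 3 of 5 detected and miR-144-5p and miR-486-3p at 0. The endothelial sum and miR-1b-3p were thus higher in both Exo-AT libraries, as the cluster was, and the leukocyte sum was so in replicate 2, with replicate 1 too shallow to tell. Their part in the cluster's result was not tested.

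The miRNAs nearest in pattern to miR-450a-5p, among 132 outside the cluster with at least 30 counts, were miR-379-5p, miR-1b-3p and miR-9a-5p, by Euclidean distance of log2(CPM + 10) over the 3 libraries. miR-379-5p (distance 3.06) had 21 and 261 counts in Exo-AT, against 3 in Exo-ADSCs. miR-1b-3p, a muscle miRNA (distance 3.38), had 18 and 177 counts in Exo-AT, against 3 in Exo-ADSCs. miR-9a-5p (distance 3.65) had 39 and 84 counts in Exo-AT, against 3 in Exo-ADSCs. The miRNAs nearest to miR-322-3p, the cluster arm with the most counts in Exo-ADSCs, were miR-146b-3p, miR-466b-5p and miR-6328-5p, at distances of 1.62, 2.19 and 2.44. All 3 had 0 counts in both Exo-AT libraries and 32, 48 and 57 counts in Exo-ADSCs. All their reads in Exo-ADSCs had 15 to 17 nt, whereas all miR-322-3p reads had 21 nt. The limit of at least 30 counts kept out arms with as few counts as miR-322-3p.

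miR-450a-5p was the only cluster member among the 45 miRNAs of the authors' deposited table, where it stood first. Its normalized reads in the authors' deposited table were 2763 and 1809 in the columns Exo-AT1 and Exo-AT2, against 34 and 27 in Exo-ADSCs1 and Exo-ADSCs2. The fold in the authors' deposited table was 56.7. All 4 libraries thus had a value above 0 there, with both Exo-AT columns above both Exo-ADSCs columns. By its name, that table lists miRNAs up in Exo-AT against Exo-ADSCs. The direction of its entries was therefore set by the selection and is no separate support for the contrast.

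The numbering of the Exo-AT libraries may differ between the authors' deposited table and the tag files, judged only by which counts each column follows. Of the 45 entries in the column Exo-AT1 of the authors' deposited table, 36 lay within 5% of 5.44 times the counts of Exo-AT replicate 2, and 6 lay within 5% of any one multiple of the counts of replicate 1. The column Exo-AT2 of the authors' deposited table had 23 entries within 5% of 62.4 times the most frequent tag of Exo-AT replicate 1. By that factor its miR-450a-5p entry equals 29 reads, the number of the 22-nt tag of miR-450a in that library, whose 16-nt tag had 51. With all tags of Exo-AT replicate 1, 8 entries lay within 5% of 31.2 times the counts. For all tags of Exo-AT replicate 2, 6 entries of that column lay within 5% of any one multiple. By the factor of 31.2 the miR-450a-5p entry equals 58.0 reads, beside 58 counts in Exo-AT replicate 1. Which reads the entry stands for was not tested. The replicate numbers used here are those of the labels, and a crossed numbering would leave each group's set of libraries as it was.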

How the data were processed

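Small RNA of exosomes was sequenced for 36 cycles on an Illumina HiSeq after selection of inserts near 15 to 35 nt, per the labels' protocols. Per the file headers, the deposited tag files hold whole-number counts per tag and hairpin, and in the values the reads of a tag on several hairpins are divided among them and rounded. Novoalign 2.07.11 and rn6 are named in the submitters' processing notes; adaptor trimming and the miRNA release, not given in the sources used here, are unknown, and coordinates are those of GRCr8. The authors' deposited table gives normalized reads, treated as a score because its factor is not stated, and a fold, a ratio made by the authors. The deposited file of Exo-ADSCs replicate 1 was not used, and no other per-sample column was used.

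Tags on named hairpins were summed to arms by midpoint, with copies merged and positions corrected for 5 flanking bases. All arms were fitted with edgeR 4.0.16 in R 4.3.3 (two-sided quasi-likelihood test), TMM scaling and the default filter (minimum count 10, minimum total 15), with Benjamini-Hochberg adjustment at 0.05. DESeq2 1.42.0 and limma 3.58.1 were alternatives. The script was run on simulated counts first. The fit has 1 residual degree of freedom and assumes that the single Exo-ADSCs library varies like Exo-AT. Each SE is the absolute log2 fold change divided by the square root of the F value of the test. It was not estimated directly and is no measure of the spread between replicates. Folds against 0 counts are bounds at 3 counts over the group. The members and lists were chosen with earlier results of these data known. Named were all cluster arms, both lists (up to 3 of the most abundant tested) and the 3 nearest patterns of the leading arm of each group.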

Additional observations from a re-analysis of the deposited data

Results flagged for a closer look

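miR-450a-5p has a value of 27 normalized reads for Exo-ADSCs replicate 2 in the authors' deposited table, although the tag file of that library has 0 counts of it. That column of the authors' deposited table lay within 5% of 1.39 times the library's own counts for 25 of 45 entries, and by this factor the entry would equal 19.4 reads. Of the 4 entries of the authors' deposited table that had 0 tag counts in this library, miR-450a-5p had a value above 0 and miR-203b-3p, miR-150-5p and miR-224-5p were at 0. For Exo-ADSCs replicate 1, the authors' deposited table gives miR-450a-5p 34 normalized reads, a signal in data outside the counts used here.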

How the results depend on the processing

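Of 118 recomputed values, 90 were labelled the same. For a tested fold change this means the same sign and call, with no limit on size. For a share it means a value within the main interval, and for a number of calls a change of limited size. Some values could not change, such as the arm shares of hairpins read from a single arm. miR-351-5p changed sign when an Exo-AT library was left out (3.69 without replicate 1 and -4.33 without replicate 2, with 1 library per group and no test). miR-450b-5p changed sign with tags on hairpins of a single miRNA only (-0.50). There the tags it shares with miR-450a drop out, while its Exo-ADSCs tag, which is not the mature miRNA, stays. The 4 cluster arms called higher became 1 with tags on a single hairpin, 2 with tags of 20 to 25 nt and 1 with limma; the first setting, by its construction, leaves only miR-450a, whose hairpin has 1 copy. Calls higher over all miRNAs, 35, became 23 with DESeq2 size factors, 21 with the DESeq2 Wald test, 5 with limma and 46 with total counts. Calls lower over all, 35, became 19 with total counts, 21 with the DESeq2 Wald test and 15 with limma; the cause was not tested. The cluster's share of counts in Exo-AT replicates 1 and 2, then in Exo-ADSCs, was 0.435%, 0.261% and 0% with single-hairpin tags, 0.800%, 0.550% and 0.0506% with tags of 20 to 25 nt, and 0.803%, 0.659% and 0.00392% of all assigned counts. miR-351-5p lost its call with DESeq2 size factors (2.67), without a filter (3.07) and at 20 to 25 nt (2.18), as miR-542-3p did at 20 to 25 nt (2.58). Without either Exo-AT library in turn, miR-450a-5p ranged from 10.49 to 11.53, fitted values against 0 counts and no bounds. The median log2 fold change over all 183 was 0.37 under TMM, 0.08 under size factors of DESeq2 and 1.21 under total counts; relative to it, miR-450b-5p stood at 4.54, 4.58 and 4.58, and miR-542-3p at 3.38, 3.41 and 3.41. No paired analysis was possible because tag counts cover 1 Exo-ADSCs library, so the groups share fewer than 2 replicate numbers. Depth limits miR-322, miR-503 and both 3p arms to statements near 3 counts.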
